A study of Mus musculus with 6 samples.

Results

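The aryl hydrocarbon receptor (AHR) and 6 genes tied to it were followed through T helper cell differentiation. They were given as a list of gene names, and all 7 were found by symbol among the 24223 genes counted in each RNA-Seq library. They are *Ahr*, the receptor, *Arnt*, its partner, *Ahrr* and *Tiparp*, which restrain it, and *Cyp1a1*, *Cyp1b1* and *Nqo1*, which encode enzymes under its control. The libraries of the 3 cell types overlapped in *Ahr* itself, with log2 fold changes between 0.13 and 0.29 that did not pass the test. *Ahrr* rose from near the limit of detection in Naive to 8.74 ± 1.08 CPM (SD, n = 2) in Th17 and 3.72 ± 2.94 CPM (SD, n = 2) in Th1, and *Cyp1b1* rose from no read in Naive in both. *Tiparp* and *Cyp1a1* had their highest levels in both Th17 libraries, with differences that did not pass the thresholds used. CPM is a gene's counts per 1000000 of its library's total, scaled by edgeR's TMM factors, and a gene is said to be called where its adjusted p was under 0.01 and its log2 fold change was more than 1 in size.

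AHR is a transcription factor of the bHLH-PAS family that is activated by small molecules, among them dioxins, plant indoles and products of tryptophan. Without a ligand it is held in the cytosol by HSP90 and its co-chaperones, and with one it enters the nucleus, pairs with ARNT and binds DNA at a short core, GCGTG, in or near genes such as *Cyp1a1*. The AHR repressor, encoded by *Ahrr*, competes for ARNT, and TIPARP attaches ADP-ribose to AHR, and both genes are themselves AHR targets. Among CD4+ T cells the receptor is best known from Th17 cells, where it takes part in the production of interleukin 22.

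Cells came from C57BL/6 mice aged 1 to 2 months, with lymph nodes and spleens pooled, and each of the 3 cell types has 2 libraries. Naive cells are non-activated CD4+ T cells taken by a CD4+CD62L+ kit, and the study's methods and its reporting form give different purities for them. The other libraries come from such cells cultured for 5 days with antibodies to CD3 and CD28. Th17 cultures also received TGF-β, IL-6, IL-1β, IL-23 and antibodies that block IL-4 and IFN-γ, whereas Th1 cultures received IL-12, IL-2 and the antibody that blocks IL-4. No AHR ligand is named among these additions, no culture is named for the Naive cells, and no genetic change for any group. The culture medium contained serum, and the methods give no measure of AHR ligands in it. The study describes the 2 replicates as independent, and its methods do not say which animals entered each.

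Libraries held between 17742158 and 69080017 counts, with replicate 1 the deeper one in each cell type. The limit of detection, set at 3 counts in a library, lay between 0.0440 and 0.190 CPM. T cell markers were plain in every library (8 of 8 above 10 CPM), Th17 markers summed to 1412 and 1877 CPM in Th17 and at most 10.5 elsewhere, and Th1 markers to 896 and 922 CPM in Th1 and at most 162 elsewhere. The 6 naive T cell markers did not set Naive apart, with sums of 2822 and 4274 CPM there and 2561 to 4521 CPM in the polarized cells. In Th17, 8 of 8 neutrophil markers were above 10 CPM in both libraries, and the list summed to 2993 and 2860 CPM against 28.2 to 310 CPM elsewhere. Macrophage and dendritic cell markers summed to 316 and 943 CPM in Th17 and to at most 48.8 CPM elsewhere, and mast cell and basophil markers to 213 and 430 CPM against at most 70.8 CPM. B cell markers summed to at most 15.1 CPM and NK and CD8 T cell markers to at most 27.0 CPM in any library. *S100a8*, the most abundant neutrophil marker, had 1149 and 1142 CPM in Th17, and *Lyz2*, the most abundant macrophage marker, 223 and 762 CPM, while *Hba-a1* and *Hbb-bs*, the globin genes, had no count in any library. These marker levels move with every comparison of Th17 given below, and their part in those results was not tested. In bulk RNA, fewer cells that express a gene and less of its RNA in each cell cannot be told apart.

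**Figure D1:**
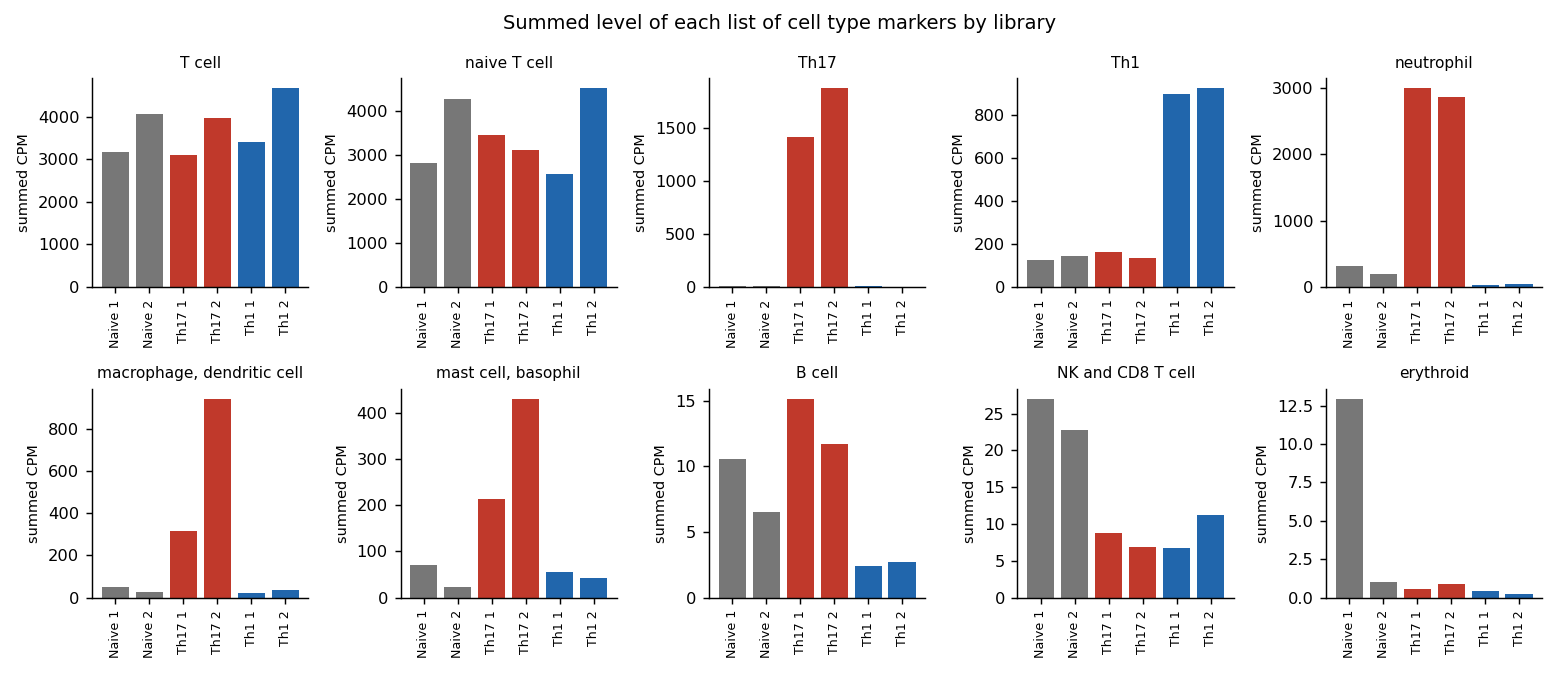
Summed level of each list of cell type markers, in TMM-scaled CPM, for each of the 6 libraries (1 bar a library, grey Naive, red Th17, blue Th1, each panel with its own axis from 0). Neutrophil, macrophage and dendritic cell, and mast cell and basophil markers were highest in the 2 Th17 libraries, and erythroid markers reached 12.9 CPM in Naive replicate 1 alone.

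DNA upstream of the start sites was searched for the AHR core because 2 of the genes, *Ahrr* and *Cyp1b1*, were called up over Naive in both Th17 and Th1. RefSeq windows on GRCm38.p6 were given for 6 of the 7 genes, the exception being *Ahr*. On either strand, the core GCGTG occurred in the 250 bases before the start of 5 of the 6, against 28.2% of 32841 windows of this length. *Ahrr* held 3 cores, of which the one nearest the start sits within the longer form TNGCGTG, a form found in 4.1% of windows and in no other of the 6. *Cyp1a1* held 1 core on the strand of the gene, and *Cyp1b1* and *Tiparp* each held 1 on the other strand. These 4 windows are shown because their genes had the highest fold changes of the 7 in Th17 compared with Naive, written 5′ to 3′ on the strand of the gene, with the core in capitals (GCGTG, or CACGC where it lies on the other strand).

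Ahrr (chr13:74292332-74292581, minus strand): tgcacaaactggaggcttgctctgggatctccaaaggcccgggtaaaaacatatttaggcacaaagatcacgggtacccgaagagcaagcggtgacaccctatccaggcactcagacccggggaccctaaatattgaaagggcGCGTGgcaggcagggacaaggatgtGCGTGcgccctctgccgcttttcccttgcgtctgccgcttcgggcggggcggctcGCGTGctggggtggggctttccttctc
Cyp1b1 (chr17:79715062-79715311, minus strand): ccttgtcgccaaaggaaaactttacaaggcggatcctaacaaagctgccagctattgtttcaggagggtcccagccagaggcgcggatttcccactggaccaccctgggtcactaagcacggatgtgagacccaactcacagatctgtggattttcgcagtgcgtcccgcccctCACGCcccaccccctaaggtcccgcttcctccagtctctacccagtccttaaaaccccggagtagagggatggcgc
Cyp1a1 (chr9:57697363-57697612, plus strand): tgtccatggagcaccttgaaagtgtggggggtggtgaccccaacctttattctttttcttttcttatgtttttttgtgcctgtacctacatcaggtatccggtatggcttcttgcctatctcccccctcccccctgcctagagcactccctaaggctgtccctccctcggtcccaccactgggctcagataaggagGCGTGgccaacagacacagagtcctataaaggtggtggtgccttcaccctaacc
Tiparp (chr3:65528197-65528446, plus strand): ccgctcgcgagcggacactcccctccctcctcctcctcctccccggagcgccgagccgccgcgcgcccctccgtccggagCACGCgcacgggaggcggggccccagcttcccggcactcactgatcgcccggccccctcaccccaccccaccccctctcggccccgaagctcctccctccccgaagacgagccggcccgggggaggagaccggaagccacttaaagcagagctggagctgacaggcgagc

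Counted back from the start site, the cores of *Ahrr* begin at bases -107, -82 and -27, that of *Cyp1a1* at -54, that of *Cyp1b1* at -76 and that of *Tiparp* at -170. *Arnt* has 1 core beginning at -29, and also 2 matches to the antioxidant response element TGACNNNGC, a motif found in 10.2% of windows. *Nqo1*, known as an antioxidant response gene, had neither motif in these 250 bases. G and C made up 53.2% to 75.2% of the 6 windows and 52.4% of the median window, and the part of this difference in the share with a core was not tested. A match of letters is only a description, and binding was not measured here.

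**Figure D2:**
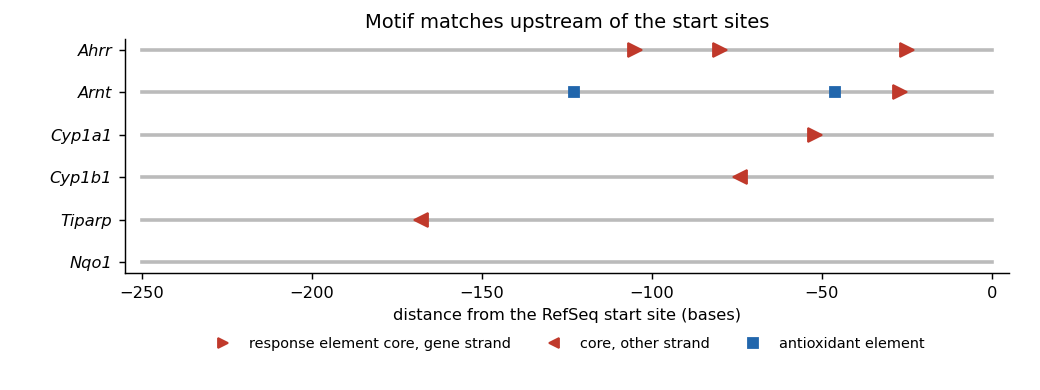
Position of each motif match in the 250 bases before the RefSeq start site, in bases from that site, for the 6 genes with a window. Triangles mark the middle of each AHR core by strand and squares that of the antioxidant element, and *Ahrr* is the gene with 3 cores, whereas *Nqo1* has no mark.

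*Ahr* lies on chr12:35497974-35535038 of GRCm38, minus strand. It was read at 5.87 and 8.12 CPM in the Naive libraries, 9.70 and 7.35 CPM in Th17 and 9.44 and 6.13 CPM in Th1. The highest Naive library exceeded the lower library of both polarized cell types, so that no pair of cell types was separated. Th17 differed from Naive by 0.29 on the log2 scale (SE, the standard error of the log2 fold change, 0.40, adjusted p = 0.63 by edgeR's quasi-likelihood test with Benjamini-Hochberg adjustment over 13607 genes), and Th1 did so by 0.17 (SE 0.40, adjusted p = 0.83). Th17 and Th1 differed by 0.13 (SE 0.40, adjusted p = 0.84). The 95% intervals bound these differences at -0.59 to 1.18, -0.72 to 1.05 and -0.76 to 1.01 on the log2 scale, which does not show that the cell types are alike. Behind these levels stood 400 and 164 counts in Naive, 634 and 130 counts in Th17 and 610 and 97 counts for Th1. An antisense lincRNA, *Gm48236*, shares 127 exon bases with *Ahr* and was not analysed here.

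*Arnt*, whose product pairs with AHR and with the hypoxia factor HIF-1α, lies on chr3:95434388-95497240 on the plus strand. Its level was 62.4 and 72.4 CPM in Naive, 59.4 and 52.8 CPM in Th17, and 48.1 and 48.6 CPM in Th1. Both Naive libraries lay above the other 4, and both Th17 libraries above those of Th1. The log2 fold changes were small and did not pass the test, at -0.26 in Th17 (SE 0.25, adjusted p = 0.48) and -0.48 in Th1 (SE 0.25, adjusted p = 0.24) compared with Naive, and 0.22 in Th17 compared with Th1 (adjusted p = 0.57).

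*Ahrr* lies on chr13:74211118-74292331 on the minus strand. In Naive it had 5 and 2 counts, or 0.0734 and 0.0990 CPM. In Th17 it had 621 and 141 counts, or 9.50 and 7.98 CPM. In Th1 it had 375 and 26 counts, or 5.80 and 1.64 CPM. All 4 libraries of polarized cells were far above the Naive pair, and the Th1 replicates differed 3.53-fold between themselves. *Ahrr* was up-regulated compared with Naive by a log2 fold change of 6.70 in Th17 (SE 0.79, adjusted p = 0.00069) and 5.50 in Th1 (SE 0.77, adjusted p = 0.0014). Over the summed counts, the ratio to Naive was 116 in Th17 (95% interval 55.9 to 289) and 62.9 in Th1 (30.2 to 157), intervals that cover counting error only. Both Th17 libraries were above both Th1 libraries, but the log2 fold change of 1.20 between them did not pass (SE 0.56, adjusted p = 0.16). Without Naive replicate 1, the Th1 difference of 5.22 no longer passed (adjusted p = 0.015).

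*Tiparp* lies on chr3:65528410-65555518 on the plus strand and encodes an ADP-ribosyltransferase. Its level was 12.3 and 18.2 CPM in Naive, 37.1 and 43.8 CPM in Th17 and 22.3 and 18.2 CPM in Th1. The Th17 libraries were above the other 4, whereas the lower Th1 library and the higher Naive library were nearly level. Th17 gave a log2 fold change of 1.41 compared with Naive (SE 0.32, adjusted p = 0.017) and 1.00 compared with Th1 (SE 0.31, adjusted p = 0.055), and in Th1 compared with Naive it was 0.41 (adjusted p = 0.43). The first of these missed the adjusted p of 0.01 required here, and was called by DESeq2 (1.42, adjusted p = 4.0e-04), with no filter on low counts (adjusted p = 0.0011) and at an adjusted p under 0.05, which 15.2% of all genes tested met with the same fold. An antisense gene, *4931440P22Rik*, shares 223 exon bases with *Tiparp*. It had 1.39 to 3.35 CPM over the 6 libraries, and since the sources differ on the strand setting used for counting, reads in the shared bases cannot be assigned with certainty.

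**Figure D3:**
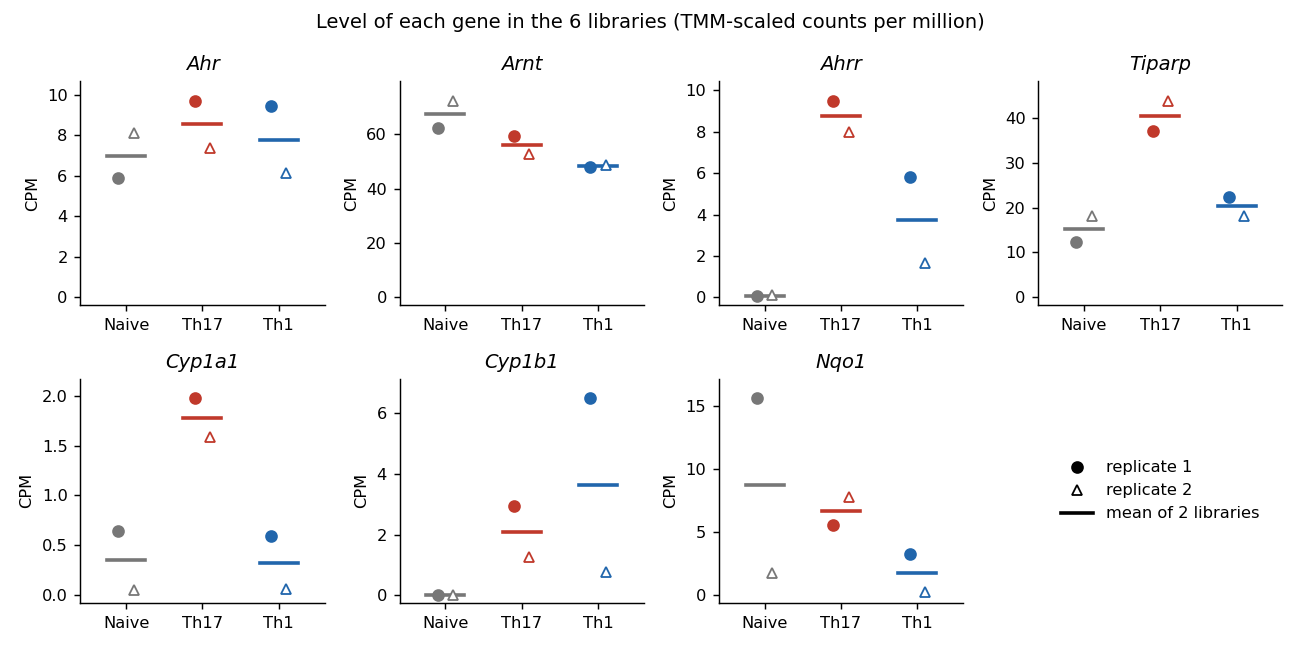
Level of each gene in TMM-scaled CPM (linear axes from 0, own scale in each panel) for the 2 Naive, 2 Th17 and 2 Th1 libraries, with filled circles for replicate 1, open triangles for replicate 2 and a bar at the mean. *Ahr* overlaps between all cell types, *Ahrr* and *Cyp1b1* start at or near 0 in Naive, and *Nqo1* is spread between 15.6 and 1.78 CPM within Naive.

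*Cyp1a1*, the best known AHR target, encodes a monooxygenase that breaks down AHR ligands and lies on chr9:57687928-57703824 on the plus strand. It had 44 counts and 1 count in Naive, or 0.646 and 0.0495 CPM, and 38 counts and 1 count in Th1, or 0.588 and 0.0632 CPM. In Th17 it had 129 and 28 counts, or 1.97 and 1.58 CPM. Both Th17 libraries lay above the other 4, of which replicate 2 of Naive and of Th1 were under the limit of detection. Th17 gave log2 fold changes of 2.18 compared with Naive (SE 0.96, adjusted p = 0.14) and 2.23 compared with Th1 (SE 0.97, adjusted p = 0.14), and neither passed. Between Th1 and Naive it was -0.05 (SE 0.98, adjusted p = 0.98), and its sign turned to 2.85 without Naive replicate 1 and to 0.59 without Th1 replicate 2. The Th17 replicates differed 1.25-fold, and no such ratio is given for the pairs with a library of 1 count.

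*Cyp1b1*, a related monooxygenase of steroid and xenobiotic metabolism, lies on chr17:79701537-79715061 on the minus strand. No read fell on it in either Naive library, where the limit of detection averaged 0.0963 CPM. It had 192 and 22 counts in Th17, or 2.94 and 1.24 CPM, and 420 and 12 counts in Th1, or 6.50 and 0.759 CPM. Every library of polarized cells was above the Naive floor, and the Th1 pair enclosed the Th17 pair. Against that floor of 3 counts in each library, *Cyp1b1* was at least 21.7-fold higher in Th17 and at least 37.7-fold higher in Th1 than in Naive by the means of the 2 libraries, and both differences were called (adjusted p = 0.0097 and adjusted p = 0.0050). By the lower library of each cell type alone these bounds were 12.9-fold and 7.88-fold, so that the order of Th17 and Th1 turned. The fitted log2 fold changes, 9.49 and 10.29, depend on the prior count and are not bounds. Leaving out either Naive library or Th17 replicate 1 ended the call in Th17 (adjusted p = 0.018 to 0.049), and leaving out Naive replicate 1 or Th1 replicate 1 ended it in Th1 (adjusted p = 0.034 and adjusted p = 0.012). Th17 and Th1 differed by a log2 fold change of -0.80 (SE 0.86, adjusted p = 0.54), which became 1.48 without Th1 replicate 1, and the Th1 replicates differed 8.56-fold.

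*Nqo1*, a quinone reductase regulated by both AHR and NRF2, lies on chr8:107388225-107403206 on the minus strand. Its level was 15.6 and 1.78 CPM in Naive, 5.52 and 7.81 CPM in Th17 and 3.22 and 0.253 CPM in Th1. Naive replicate 1 was the highest of the 6 libraries and Naive replicate 2 the second lowest, so that the Naive pair enclosed both Th17 libraries and the upper Th1 library. No difference passed the test, with log2 fold changes of -0.40 in Th17 (SE 0.97, adjusted p = 0.80) and -2.24 in Th1 (SE 1.02, adjusted p = 0.17) compared with Naive, and 1.83 between Th17 and Th1 (SE 1.01, adjusted p = 0.23). Without Naive replicate 1 the values compared with Naive were 1.89 in Th17 and 0.06 in Th1, both of the opposite sign. Markers of other cell types were also higher in Naive replicate 1 than in replicate 2. Erythroid markers summed to 12.9 and 0.990 CPM, mast cell and basophil markers to 70.8 and 22.4 CPM, neutrophil markers to 310 and 189 CPM and macrophage and dendritic cell markers to 48.8 and 27.8 CPM, and their part in this result was not tested.

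Between Th17 and Naive, 2 of the 7 genes were called, both up in Th17, against 5.43% of the 13607 genes tested in either direction and 4.01% up. In Th1 compared with Naive, the same 2 genes were called, *Ahrr* and *Cyp1b1*, against 7.45% in either direction and 4.64% up. With no read in Naive, *Cyp1b1* could only be called up against it. In Th17 compared with Th1, edgeR and DESeq2 both called none of the 7 and 2 (*Cyp1a1* and *Tiparp*) had an unadjusted p under 0.05, against 5.53% of all genes called. Compared with Naive, DESeq2 called 3 of the 7 in Th17 and 2 in Th1, all up, against 12.4% and 13.8% of all genes with an adjusted p, and 13.4% in Th17 compared with Th1. Over all genes, 33.3%, 29.9% and 33.8% had an unadjusted p under 0.05 by edgeR in the 3 comparisons. These comparisons share their Naive libraries or their polarized ones, so that they are not separate evidence. The 7 genes were also chosen with earlier results of these data known. Libraries that did not overlap were frequent among all genes. In Th17 compared with Naive, 4 of the 7 genes lay wholly higher and 1 wholly lower, against 32.4% and 33.1% of genes tested. Th1 had 3 higher than Naive and 1 lower, against 27.6% and 28.4%, and Th17 had 5 higher than Th1 and 0 lower, against 35.1% and 31.5%. The median log2 fold change of the 7 was 1.41, 0.17 and 1.00 in the 3 comparisons, the same with *Cyp1b1* at its bound, and that of all genes tested was -0.02, -0.02 and 0.03.

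**Figure D4:**
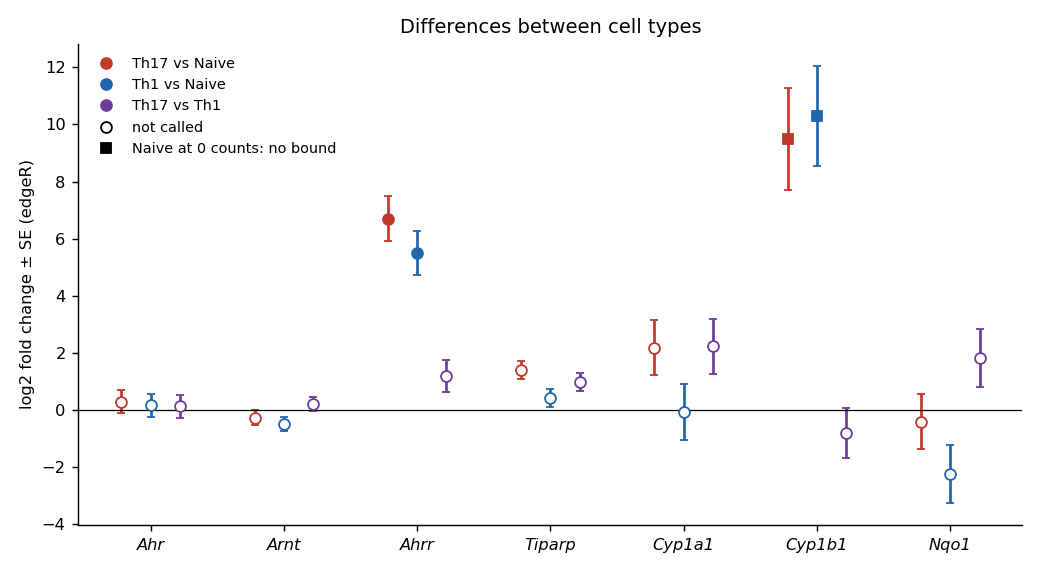
Log2 fold change of each gene with its standard error (edgeR, 2 libraries a group) in Th17 compared with Naive (red), Th1 compared with Naive (blue) and Th17 compared with Th1 (purple). Filled symbols were called at an adjusted p under 0.01 with a log2 fold change of more than 1 in size, squares stand for *Cyp1b1*, whose fitted values of 9.49 and 10.29 against a group with no read are not bounds, and *Ahr* and *Arnt* lie near 0 in every comparison.

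To set the genes beside each other, CPM was divided by the length of merged exons in kilobases. In Naive the order of these levels per kilobase was *Arnt* at 8.42, *Nqo1* at 5.59, *Tiparp* at 3.50, *Ahr* at 1.14, *Cyp1a1* at 0.125, *Ahrr* at 0.00913 and *Cyp1b1* at 0. The libraries of *Arnt* and *Nqo1*, and of *Nqo1* and *Tiparp*, overlapped there. In Th17 the order per kilobase was *Tiparp* at 9.28, *Arnt* at 7.01, *Nqo1* at 4.29, *Ahr* at 1.38, *Ahrr* at 0.926, *Cyp1a1* at 0.638 and *Cyp1b1* at 0.358, and no neighbours in it overlapped. In Th1 *Arnt* stood at 6.04 and *Tiparp* at 4.65, and the rest followed from *Ahr* at 1.26 through *Nqo1* at 1.12, *Cyp1b1* at 0.621 and *Ahrr* at 0.394 to *Cyp1a1* at 0.117, each overlapping the next. Per kilobase, *Tiparp* was therefore below *Arnt* in Naive and Th1 and above it in Th17.

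The genes whose profile over the 6 libraries came closest to that of *Ahr* were *1500004A13Rik*, *Ccnl2*, which encodes a cyclin of the splicing machinery, *6030443J06Rik*, *Hnrnpa3*, which encodes an RNA-binding protein, and *Ccdc134*. Their root mean square distances from *Ahr* in centred log2 CPM were 0.0864, 0.0972, 0.0975, 0.110 and 0.119. *Ccnl2*, the most abundant of them, had 178 CPM in Naive, 202 in Th17 and 169 in Th1. Ranking by Pearson's r of log2 CPM instead kept 1 of these 5, *1500004A13Rik*.

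Around the 7 genes, 65 others of the pathway were listed in 6 groups, of which 53 had enough counts to be tested. In Th17 compared with Naive 14 were called, in Th1 compared with Naive 6, and in Th17 compared with Th1 7, where 5.43%, 7.45% and 5.53% of all genes tested were called. The lists were written with earlier results of these data known, so these counts describe them and are not a test of the pathway. The 5 genes of the cytosolic AHR complex held none called by edgeR or DESeq2 in any comparison. An unadjusted p under 0.05 was met by 0, 0 and 1 (*Src*, a kinase) of these 5 genes, against 33.3%, 29.9% and 33.8% of all genes tested. Their log2 fold changes ran from -0.37 to 1.37 over the 3 comparisons. Of the 7 coactivator and corepressor genes none was called by edgeR in any comparison, with 3, 1 and 5 at an unadjusted p under 0.05. Between Th17 and Naive all 7 had a negative log2 fold change, the median being -0.67 beside -0.02 over all genes tested, and 6 of 7 in Th17 compared with Th1, with a median of -1.12 beside 0.03. DESeq2 called 2 of them lower in Th17 than in Naive (*Crebbp* and *Nrip1*), against 4.76% of all genes, and 3 lower than in Th1 (these and *Ep300*), against 6.77%.

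Among 13 other bHLH-PAS factors, 9 were tested, of which 2 were called up in Th17 and 2 up in Th1 compared with Naive, and 1 was called lower in Th17 than in Th1. Over all genes tested, 4.01% were called up in Th17 and 4.64% up in Th1, and 5.53% in either direction between Th17 and Th1. DESeq2 called 2 up and 1 down (*Epas1*) in Th17, 3 up and 1 down (*Npas4*) in Th1, and 2 lower in Th17 than in Th1 (*Hif1a* and *Npas2*). Of all genes with an adjusted p it called 12.4%, 13.8% and 13.4%. *Epas1* had 8.66 and 13.8 CPM in Naive against 2.17 and 1.19 CPM in Th17 (log2 fold change -2.70, adjusted p = 0.020 by edgeR, not called). *Hif1a*, which encodes the hypoxia factor that also pairs with ARNT, rose from 92.7 and 126 CPM in Naive to 518 and 496 CPM in Th17 and 1143 and 1073 CPM in Th1. All libraries of the cell types stood apart, with log2 fold changes of 2.21 in Th17 (SE 0.30, adjusted p = 0.0014) and 3.34 in Th1 (SE 0.31, adjusted p = 1.8e-04). *Arnt2*, a relative of *Arnt*, was up-regulated in Th17, with 0.646 and 0.248 CPM in Naive, 10.9 and 6.39 CPM in Th17 and 4.38 and 2.15 CPM in Th1. In Th1 compared with Naive it was called by DESeq2 but not by edgeR (log2 fold change 2.78, adjusted p = 0.013 by edgeR). Its log2 fold change of 4.16 in Th17 compared with Naive (SE 0.63, adjusted p = 0.0025) did not pass without Th17 replicate 1 (adjusted p = 0.020), nor did that of *Hif1a* in Th17 without Naive replicate 1 (adjusted p = 0.0102). *Npas2*, a circadian factor, had 0.778 and 1.04 CPM in Naive, 2.11 and 1.07 CPM in Th17 and 10.3 and 21.1 CPM in Th1. It was higher in Th1 than in either other cell type, by log2 fold changes of 4.12 over Naive (adjusted p = 0.0013) and 3.25 over Th17, written -3.25 for Th17 compared with Th1 (adjusted p = 0.0040). The latter did not pass without either Th17 library or Th1 replicate 2 (adjusted p = 0.018 to 0.035). The median log2 fold change of the 9 was 0.19 for Th17 compared with Naive and -0.18 for Th1, beside -0.02 over all genes tested in each, and 0.33 for Th17 compared with Th1, beside 0.03, which turned to -0.0015 with *Npas4*, at its Th1 floor, put at its bound.

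The 14 other AHR target genes included 6 with too few counts for a test, among them *Cyp1a2* and *Aldh3a1*, enzyme genes with at most 7 and 31 counts in a library. Of the 8 tested, 5 were called in Th17 compared with Naive, all up, 4 in Th1 compared with Naive, all up, and 3 higher and 2 lower in Th17 compared with Th1. Over all genes tested, 5.43%, 7.45% and 5.53% were called in either direction. DESeq2 called 5 up, 4 up and 1 down, and 4 higher and 3 lower, against 12.4%, 13.8% and 13.4% of all genes with an adjusted p. The gene it called down in Th1 was *Scin*, which encodes an actin-severing protein, with 28.4 and 8.32 CPM in Naive, 9.59 and 30.1 CPM in Th17 and 3.67 and 2.47 CPM in Th1. By edgeR its log2 fold change of -2.57 in Th1 compared with Naive was not called (adjusted p = 0.027). *Il22*, the cytokine most closely tied to AHR, had 636 and 646 CPM in Th17, against 0.323 and 0.149 CPM in the Naive libraries and 0.557 and 0 CPM in those of Th1. The Th17 libraries stood apart by log2 fold changes of 11.21 over Naive (SE 0.75, adjusted p = 4.7e-05) and 10.68 over Th1 (SE 0.73, adjusted p = 7.8e-05). The latter was 17.58 without Th1 replicate 1, which leaves a Th1 library with no count, so that its size is not fixed by these data, while all values with a library left out were called. *Gpr15*, a homing receptor, had 25.2 and 20.7 CPM in Th17 and 0.632 to 3.48 CPM elsewhere, with log2 fold changes of 3.54 over Naive (adjusted p = 0.0062) and 3.40 over Th1 (adjusted p = 0.0074). Its call over Naive was lost without any one of the Naive or Th17 libraries (adjusted p = 0.013 to 0.034), and its call over Th1 without either Th17 library (adjusted p = 0.038 and adjusted p = 0.019).

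The other called genes of that list were all up-regulated in Th1 compared with Naive. *Il21*, a cytokine of helper T cells, had 1.75 and 1.73 CPM in Naive, 35.5 and 48.7 CPM in Th17 and 13.4 and 13.6 CPM in Th1. Compared with Naive it was up-regulated in Th17 (4.59, adjusted p = 6.9e-05) and Th1 (2.95, adjusted p = 4.6e-04), and was higher in Th17 than in Th1 (1.64, adjusted p = 0.0077), a call lost without any one of the 4 libraries compared (adjusted p = 0.026 to 0.11). *Il10*, which encodes an anti-inflammatory cytokine, had 0.235 and 0.347 CPM in Naive, 3.55 and 1.41 CPM in Th17 and 26.2 and 16.1 CPM in Th1. Its log2 fold change was 3.20 in Th17 (adjusted p = 0.0064) and 6.25 in Th1 (adjusted p = 2.6e-04) compared with Naive, and -3.06 in Th17 compared with Th1 (adjusted p = 0.0045). The call in Th17 over Naive was lost without either Naive library or Th17 replicate 1 (adjusted p = 0.013 to 0.049), and that against Th1 without either Th17 library or Th1 replicate 1 (adjusted p = 0.0101 to 0.033). *Entpd1*, which encodes the ectoenzyme CD39, had 69.0 and 80.7 CPM in Th1 and 4.41 to 7.12 CPM in the other 4 libraries. It was thus higher in Th1 than in Naive by 3.48 (adjusted p = 1.6e-04), and Th17 compared with Th1 gave -3.83 (adjusted p = 1.7e-04). *Socs2*, a brake on cytokine signalling, had 7.79 and 8.32 CPM in Naive, 43.9 and 31.2 CPM in Th17 and 97.5 and 67.6 CPM in Th1. Both changes from Naive were called, 2.22 in Th17 (adjusted p = 0.0018) and 3.36 in Th1 (adjusted p = 2.2e-04), the former lost without Naive replicate 1 or Th17 replicate 1 (adjusted p = 0.012 and adjusted p = 0.014). The median log2 fold change of the genes tested was 3.37, 1.95 and 2.15 in the 3 comparisons, and 2.95, 2.95 and 2.03 with *Ugt1a6a*, a gene at or under 3 counts in each Naive and each Th1 library, put at its bound or left out where both groups were there. Since a gene low in all cell types was not tested, these counts and medians do not describe the list as a whole.

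**Figure D5:**
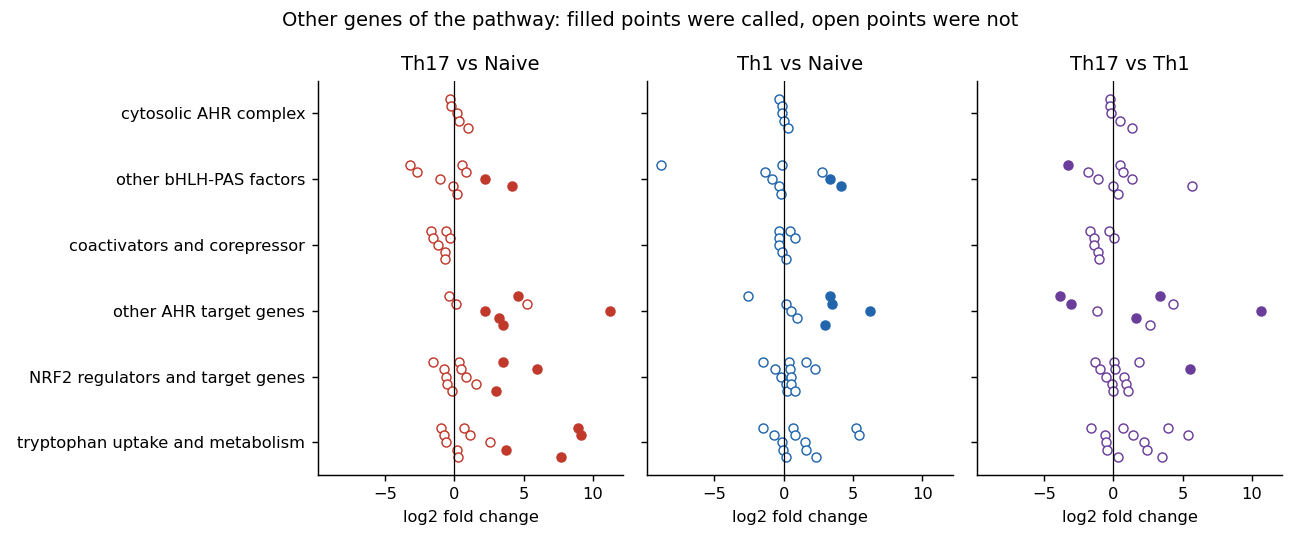
Log2 fold change of the tested genes in the 6 pathway lists, 1 point a gene, for Th17 compared with Naive, Th1 compared with Naive and Th17 compared with Th1, with filled points for those called. Called points lie to the right of 0 in both comparisons with Naive, and the cytosolic complex and the coactivators have none.

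NRF2, the factor that answers oxidative stress, also regulates *Nqo1*, and 12 genes listed as its regulators or other targets were all tested, with median log2 fold changes of 0.40, 0.42 and 0.12 in the 3 comparisons. In Th17 compared with Naive 3 of them were called by edgeR, all up, against 4.01% of all genes tested. DESeq2 called 4 up and 1 down, against 12.4% of all genes with an adjusted p. The gene down was *Osgin1*, which had 5.52 and 8.96 CPM in Naive against 2.52 and 2.49 CPM in Th17 (log2 fold change -1.52, adjusted p = 0.046 by edgeR). *Slc7a11*, which encodes the cystine transporter, had 0.205 and 0.149 CPM in Naive, 3.55 and 20.5 CPM in Th17 and 0.356 and 0.0632 CPM in Th1, with log2 fold changes of 5.98 over Naive (adjusted p = 0.0036) and 5.53 over Th1 (adjusted p = 0.0048). The Th17 replicates differed widely and both were above the other 4 libraries. *Srxn1*, which encodes sulfiredoxin, had 2.48 and 1.09 CPM in Naive against 20.7 and 21.3 CPM in Th17 and 7.32 and 3.92 CPM in Th1, with a log2 fold change in Th17 of 3.51 (adjusted p = 0.0019). *Hmox1*, the gene of heme oxygenase, had 1.14 and 2.18 CPM in Naive against 8.55 and 18.3 CPM in Th17 and 6.41 and 9.04 CPM in Th1, where it overlapped Th17, with a log2 fold change in Th17 of 3.04 (adjusted p = 0.0052). In Th1 compared with Naive none of the 12 was called by edgeR, against 7.45% of all genes tested, and 5 had an unadjusted p under 0.05, against 29.9%. DESeq2 called 2 up (*Hmox1* and *Srxn1*) and 1 down (*Gclm*), against 13.8% of all genes with an adjusted p. By edgeR the log2 fold change in Th1 was 2.24 for *Hmox1* (adjusted p = 0.016) and 1.63 for *Srxn1* (adjusted p = 0.043), and neither gene was called between Th17 and Th1 (adjusted p = 0.27 and adjusted p = 0.025). In Th17 compared with Th1 edgeR called 1 of the 12, *Slc7a11*, against 5.53% of all genes tested. DESeq2 called 2 higher in Th17 there, *Slc7a11* and *Srxn1*, against 13.4% of all genes with an adjusted p. The call of *Slc7a11* over Naive was lost without either Naive library or Th17 replicate 2 (adjusted p = 0.014 to 0.023), and over Th1 without either Th1 library or Th17 replicate 2 (adjusted p = 0.012 to 0.039). *Hmox1* did not pass without Naive replicate 1 or Th17 replicate 2 (adjusted p = 0.026 and adjusted p = 0.038), and *Srxn1* did not without Th17 replicate 1 (adjusted p = 0.0107).

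Enzymes that act on tryptophan can make AHR ligands, and 12 of 14 genes listed for its uptake and metabolism were tested. In Th17 compared with Naive 4 were called, all up, against 4.01% of all genes tested. Genes low in all cell types were not tested, so this count does not describe the list as a whole. *Ido1* and *Ido2*, with no count in Naive, could only be called up against it, and passed the filter on low counts through Th17. By edgeR none was called in Th1 compared with Naive or in Th17 compared with Th1, against 7.45% and 5.53%. There 5 and 6 had an unadjusted p under 0.05, against 29.9% and 33.8%. DESeq2 called 1 up and 1 down in each, against 13.8% and 13.4% of all genes with an adjusted p. The median log2 fold change of those tested was 0.92, 0.75 and 1.08 in the 3 comparisons, of which the second was 0.19 with genes at the Naive floor put at their bound or left out. *Tph1*, which encodes the first enzyme of serotonin synthesis, had 0.0294 and 0 CPM in Naive, 5.22 and 19.3 CPM in Th17 and 1.73 and 0.190 CPM in Th1. *Ido1*, a gene of the entry step to kynurenine, was at 0 in both Naive libraries and had 2.30 and 1.02 CPM in Th17, and *Ido2*, its relative, had 0.643 and 0.622 CPM there and also 0 in Naive. For Th1 the values were 0.155 and 0 CPM for *Ido1* and 0.0155 and 0 CPM for *Ido2*. In Th17 these genes were at least 128-fold, at least 17.2-fold and at least 6.57-fold higher than the Naive floor by the means of the 2 libraries (adjusted p = 0.0021, 0.0062 and 0.0095 by edgeR), and 54.2-fold, 10.6-fold and 6.46-fold by the lower Th17 library alone. *Kynu*, which acts later on kynurenine, had 0.147 and 0.0495 CPM in Naive against 1.33 and 1.87 CPM in Th17, a log2 fold change of 3.77 (adjusted p = 0.0098). The calls of *Kynu* and *Ido2* were lost without any one library for which they could be tested, with adjusted p-values of 0.013 to 0.076 and 0.014 to 0.066. That of *Ido1* was lost without either Naive library or Th17 replicate 1 (adjusted p = 0.013 to 0.054), and that of *Tph1* without Naive replicate 1 (adjusted p = 0.015). Macrophage and dendritic cell markers, mast cell and basophil markers, *Tph1*, *Slc7a11*, *Hmox1* and *Kynu* were all higher in Th17 replicate 2 than in replicate 1, while *Ido1* and *Ido2* were not, and the part of those cell types in these levels was not tested.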

How the data were processed

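RNA-Seq was measured in 6 mouse libraries from Naive, Th17 and Th1 cells, with 2 replicates each. The authors aligned reads to mm10 with HISAT2 2.2.1 and counted them per gene with HTSeq 0.13.5, and the deposited values are raw counts without normalization. The methods name removal of duplicates and default counting, whereas the supplementary code has no step for duplicates and a reverse-strand option, and the annotation counted is not given in the sources used here. Of 24223 genes, 6377 had no count, and the 13607 that passed filterByExpr were tested in R 4.3.3 with edgeR 4.0.16 (TMM scaling, quasi-likelihood F-test, cell type as the only term). The paper's thresholds were kept, so that a gene was called where its adjusted p (Benjamini-Hochberg) was under 0.01 and its log2 fold change exceeded 1 in size. The p-values rest on the spread between the 2 libraries of each group, pooled over the 3 cell types and moderated by that of the other genes tested. An exact permutation test of 2 against 2 cannot go below 0.333. CPM, counts per 1000000 of the library total, is TMM-scaled, log2 CPM used a prior count of 2, and a group with 3 counts or fewer in each library was taken to be at its floor. Replicates differed by more than sampling noise (chi-square per degree of freedom of 88.5 to 139), so each was kept as a replicate in the tests, and summed counts were used for the *Ahrr* ratios alone, and depth describes counting error only. The model was first tested on simulated counts for Th17 compared with Naive. It called 78 of 100 genes with a true log2 fold change of 3 in size, 17 of 100 at 1.5, and 1 of 13407 unchanged genes. A gene that was not called may therefore still differ. The simulation changed far fewer genes than the 739 called between Th17 and Naive in the data. Its counts were also drawn from the fitted model, so its rates need not hold for the real comparisons.

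The 7 genes and the lists were chosen with earlier results of these data known. Named are the 7 genes, those of each pathway list called in a comparison (at most 5 by size, with more than 3 counts in each library of a cell type), the 5 genes nearest *Ahr* by root mean square difference of centred log2 CPM, and, of the marker lists that touch a result, genes at 0 throughout a cell type and the most abundant. *Cyp1a2*, *Aldh3a1*, *Ugt1a6a*, *4931440P22Rik*, *Gm48236*, *Src*, *Npas4*, *Scin*, *Osgin1*, *Gclm*, *Crebbp*, *Nrip1* and *Ep300* were named after their values were seen, and some list members are not reported here. Coordinates are from GENCODE vM21 on GRCm38 and upstream sequences from RefSeq on GRCm38.p6. Alternatives were DESeq2 1.42.0, other scaling, filters, thresholds and libraries, a replicate block and thinned counts, and ratios within replicate numbers were added after seeing the data.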

Additional observations from a re-analysis of the deposited data

How the results depend on the processing

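Of the 7 genes, the number called compared with Naive went from 2 to 1 in both Th17 and Th1 with library size alone and with counts thinned to the smallest library, *Ahrr* being kept, and to 0 in both with at least 10 counts in every library, a filter under which *Ahrr*, *Cyp1a1*, *Cyp1b1* and *Nqo1* could not be tested. Without a filter 1 was called between Th17 and Th1, *Nqo1* (1.81), instead of 0. Leaving out each library in turn gave 1 to 2 called in Th17 and 0 to 2 in Th1 compared with Naive, and 0 between Th17 and Th1. The log2 fold change of *Ahr* then ran from 0.08 to 0.53 in Th17 and from -0.15 to 0.44 in Th1 compared with Naive, and from -0.15 to 0.48 between Th17 and Th1, none of them called. Its sign turned with library size alone in Th1 compared with Naive (-0.073, where the median of all genes moved by -0.25), with thinned counts between Th17 and Th1 (-0.15), in Th1 compared with Naive without Naive replicate 1 (-0.06) or Th1 replicate 1 (-0.15), and between Th17 and Th1 without Th17 replicate 1 (-0.08) or Th1 replicate 2 (-0.15). Thinned counts turned *Cyp1a1* in Th1 compared with Naive (0.091), as did leaving out Naive replicate 1 (2.85) or Th1 replicate 2 (0.59), in a range from -2.51 to 2.85 over the libraries left out. *Cyp1b1* between Th17 and Th1 turned without Th1 replicate 1 (1.48, in a range from -1.62 to 1.48), and *Nqo1* compared with Naive turned without Naive replicate 1 (1.89 in Th17, in a range from -1.24, and 0.058 in Th1, in a range from -5.05). The cause was not tested beyond these constructions. Over all genes, 739, 1014 and 752 were called in the 3 comparisons, and 1741, 1935 and 1829 by DESeq2, 2154, 2259 and 2232 without a filter, 343, 674 and 411 with at least 10 counts in every library, and 2063, 2164 and 2112 at an adjusted p under 0.05. Of the pathway lists, 14, 6 and 7 genes were called, and 20, 14 and 16 by DESeq2, 22, 14 and 23 without a filter, 6, 5 and 4 with at least 10 counts, 22, 15 and 21 at an adjusted p under 0.05, 9, 6 and 5 with library size alone, 9, 6 and 7 with thinned counts and 15, 7 and 11 with only the 4 libraries compared. For the 27 pathway results named, 332 values under alternatives kept both direction and call, 60 lost the call and 0 changed direction. These 27 were picked among called genes by the size of their change, so a change of direction was unlikely from the start. The count does not cover genes that were not called.

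Same-numbered libraries did not deviate together (correlations of -0.23, 0.17 and 0.08 over 13607 genes), so the numbers were not taken as a pairing. With the replicate block, *Nqo1* in Th17 compared with Naive turned to 0.57 (adjusted p = 0.64), the 7 genes had 2, 2 and 0 called as before, and the pathway lists had 16, 11 and 11. Within replicate numbers, a reading added after seeing the data, the log2 ratio of *Nqo1* in Th17 over Naive was -1.50 in replicate 1 and 2.13 in replicate 2. An upstream window of greater length was not run, as it needs a genome. A gene at 0 in Naive replicate 2, the shallower of that pair, may lie anywhere under 0.149 CPM.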
